A study of Mus musculus with 48 samples.

Results

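The elements described here are the 1313 short DNA elements that the reporter table puts in its Mature class and whose names carry the label seqs_unc, read here as unchanged. The rule that picks them uses class and name alone and no measured value, and they make up 1313 of the 11709 elements of the table. The class holds 2763 elements in all, the other labels being asc with 321 elements and desc with 1129. Each name ends in Mature_neurons and a number, for example Mature_neurons_404, and no source used here says what the number stands for. Numbers are used again under the other labels (Mature_neurons_944 stands under both unc and desc), so every element named below is the one labelled unc.

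The study placed the library in the somatosensory cortex of C57BL/6JRj (Haplotype H2b) mouse embryos by in utero electroporation. Tissue was collected 24 hours later, and its fixed cells were sorted into Pax6+ neural stem cells (NSC) and Tbr2+ intermediate progenitors (IPC). Electroporation at E12, E13, E14, E15 and E16 gave collections at E13, E14, E15, E16 and E17. Each cell type had 3 biological samples at E14 and at E15 but 2 at E13, E16 and E17, so 24 in all, and a DNA and an RNA library of every one gave 48 libraries. The 10 groups are therefore NSC and IPC at each of the 5 collection ages, all of 1 strain and with no other genotype or treatment. The authors deposited 1 combined value per element for each group, so no spread between biological samples can be given, and the columns of different ages serve as the only repeats. The 996 elements of the class Scrambled are the controls, and every activity below is the authors' score divided by the Scrambled median of the same column, called the fold over Scrambled.

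In a massively parallel reporter assay each candidate element is placed in a reporter construct, and its activity is read as reporter RNA relative to reporter DNA. Enhancers are stretches of DNA that raise transcription where the factors that bind them are present, so an element can be active in one cell type and silent in another. In the developing cortex, Pax6-expressing stem cells line the ventricle, and many of their daughters pass through a dividing stage that expresses Tbr2 (Eomes) before they become excitatory neurons. The class named for mature neurons was thus read in progenitors, and no column of the table holds neurons. The table holds no genes, so the labelled cell types could not be checked against marker genes. The positions and sequences of the 1313 elements were not used here.

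As a group, the unchanged Mature elements lay at the level of the Scrambled controls in both cell types and at every age. In NSC their median activity was 0.973, 1.03, 0.999, 1.03 and 0.977 fold over Scrambled from E13 to E17. In IPC the medians were 1.00, 0.990, 1.03, 0.963 and 1.06 fold in the same order. The median was above that of Scrambled in 5 of 10 columns and below it in 5, and the difference ran from -0.037 in IPC at E16 to 0.064 in IPC at E17. Between 47.7% (NSC at E17) and 54.2% (IPC at E17) of the elements with a value exceeded the Scrambled median. No age and neither cell type had a median that departed from 1 by more than these few hundredths.

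**Figure D1:**
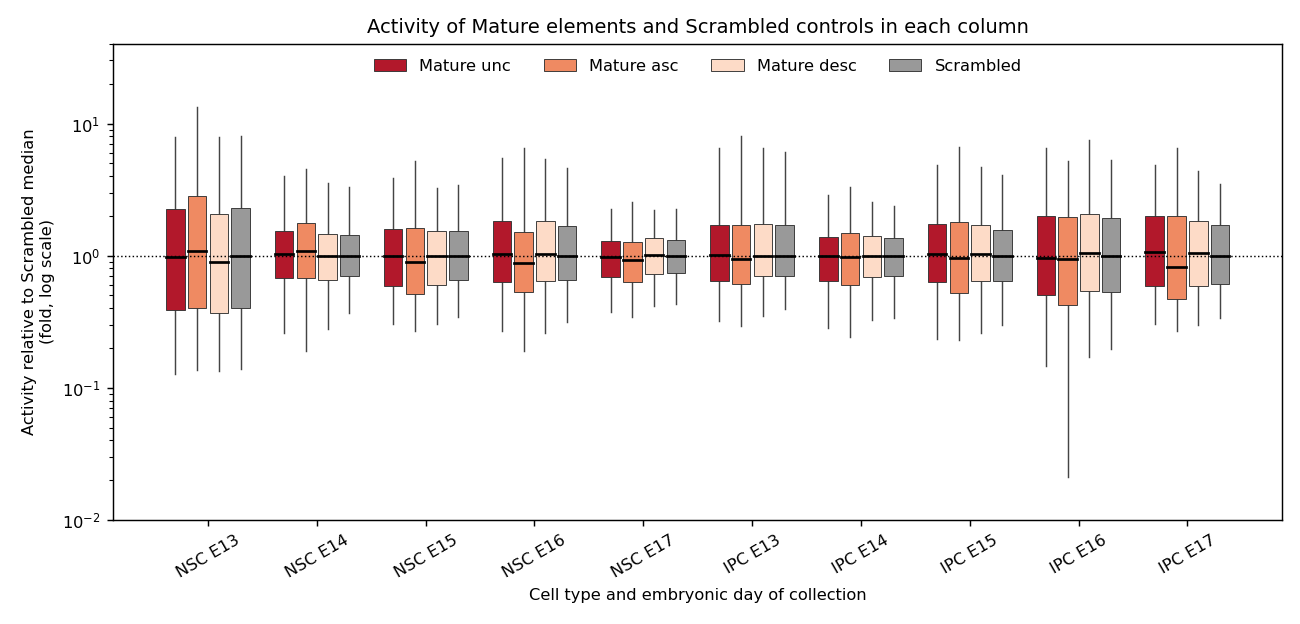
Activity of the Mature elements labelled unc (1313 elements), asc (321) and desc (1129) and of 996 Scrambled controls in the 10 columns of cell type and collection age, as fold over the Scrambled median on a log axis. Black lines are medians, boxes span the 25th to 75th percentile and whiskers the 5th to 95th percentile over elements; the unc medians lie between 0.963 and 1.06 while their boxes are wider than those of Scrambled in every column.

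Averaged over the columns, the level of the unchanged elements was close to that of the other labels of their class. It was below that of other classes. Their median exceeded that of the Mature asc elements in 8 of 10 columns, with a mean difference of 0.053 fold. That difference ran from -0.113 fold in NSC at E13 to 0.242 fold in IPC at E17. Their median exceeded that of the Mature desc elements in 7 of 10 columns, with a mean difference of -8.47e-05 fold. Here the difference ran from -0.091 fold in IPC at E16 to 0.071 fold in NSC at E13. Against elements with the same label in the progenitor classes the order was one-sided. The median was below that of the NSC class labelled unc (905 elements) in 10 of 10 columns, by 0.038 to 0.386 fold, and below that of the IPC class labelled unc (1125 elements) in 9 of 10 columns. The distance to the NSC class was widest in NSC at E17, and the distance to the IPC class was widest in IPC at E16, at -0.284 fold. The elements of the class named E14 (931 elements) were higher in 10 of 10 columns, by 0.128 to 0.428 fold. Over all other elements that are not Scrambled, the median was higher than that of the unchanged Mature elements in 10 of 10 columns, by 0.020 to 0.168 fold. These are counts of columns, and elements of a class are not replicates, so no test was attached to them.

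The unchanged elements were spread more widely than Scrambled, on both sides of a nearly equal centre. The ratio of the 75th to the 25th percentile was wider than in Scrambled in 10 of 10 columns, by 0.110 in NSC at E13 to 0.524 in IPC at E17. The 5th percentile was lower in 10 of 10 columns and the 95th percentile higher in 9 of 10, the exception being NSC at E13. In IPC at E17, for example, the 5th percentile was 0.305 fold and the 95th 4.83 fold, against 0.338 and 3.49 fold in Scrambled. The share of elements above the Scrambled limit, the value that 2.5% of the controls exceed by construction, ran from 3.05% (NSC at E16) to 5.67% (IPC at E17). It was thus higher than in Scrambled in every column, and in the other columns of IPC it lay between 3.50% and 4.57%. Among all elements that are not Scrambled the share ran from 3.15% to 6.85%. The share of the unchanged elements was below it in 9 of 10 columns. Their percentile ratio was above that of all elements that are not Scrambled in 6 of 10 columns and below it in 4. The wider spread than in Scrambled was thus not particular to the unchanged elements. Within the class the unchanged elements took a middle place, with a percentile ratio above that of Mature desc in 10 of 10 columns and below that of Mature asc in 9 of 10.

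Missing values moved with this spread. The unchanged Mature elements lacked a value in 1.22% to 6.40% of cases per column, against 0.301% to 2.01% of Scrambled, and the share was higher in 10 of 10 columns. In all, 1160 elements had a value in all 10 columns and 153 (11.7%) did not, against 4.12% of Scrambled and 7.72% of all elements that are not Scrambled. Within a column the 153 incomplete elements were spread more widely from each other than the complete ones. The middle ratio of 75th to 25th percentile over the columns was 7.59 against 2.61 for the complete ones. Among the 1160 complete elements the wider spread was smaller but remained: the 75th to 25th percentile ratio exceeded that of complete Scrambled elements in 9 of 10 columns. The share above the Scrambled limit averaged 3.41% in complete elements against 2.43% in complete Scrambled elements. It was higher than in Scrambled in 10 of 10 columns, by as little as 0.0054 percentage points in NSC at E17. Among all complete elements that are not Scrambled it averaged 4.39%. The depth behind each value is unknown, so the part of read or barcode number in the spread was not tested.

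An element was counted here as called in a column where the authors' adjusted p-value, computed against the Scrambled controls, was under 0.05. In NSC 185, 171, 139, 204 and 89 of the unchanged Mature elements were called from E13 to E17. As shares of elements with a value these were 14.5% at E13, where 15.3% of all elements that are not Scrambled were called, and 13.2% at E14 against 14.7%. At E15 the share was 11.0% against 12.5%, at E16 16.4% against 19.4%, and at E17 6.88% against 13%. Each NSC share was therefore below the background of the library, most clearly at E17, when the unchanged elements had their lowest share of any column.

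In IPC 208, 112, 183, 186 and 217 of the elements were called from E13 to E17. The shares were 16.5% at E13 against a background of 19.6%, 8.68% at E14 against 11.3%, and 14.5% at E15 against 14.9%. At E16 the share was 15.1% against 16.1% and at E17 16.9% against 18.7%. The IPC shares were also below the background at all 5 ages, and came closest to it at E15.

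Against the Scrambled controls themselves the order was the reverse, although the distances were small. The same cutoff called 13.3%, 9.77%, 8.11%, 12.9% and 6.16% of Scrambled in NSC from E13 to E17, and 15.7%, 6.66%, 11.1%, 12.4% and 10.3% in IPC. The unchanged elements had the higher share in 10 of 10 columns, by 0.722 percentage points in NSC at E17 to 6.56 in IPC at E17, with a mean of 2.71. Only in IPC at E17 did the 95% Wilson intervals not meet, 14.9% to 19.0% for the unchanged elements and 8.56% to 12.4% for Scrambled. These intervals count elements and cover no spread between embryos. With complete elements only, the mean share called was 12.7% against 10.4% in Scrambled, still higher in 10 of 10 columns. The mean share called was 1.10 percentage points above that of the Mature desc elements and 1.47 points below that of the Mature asc elements.

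**Figure D2:**
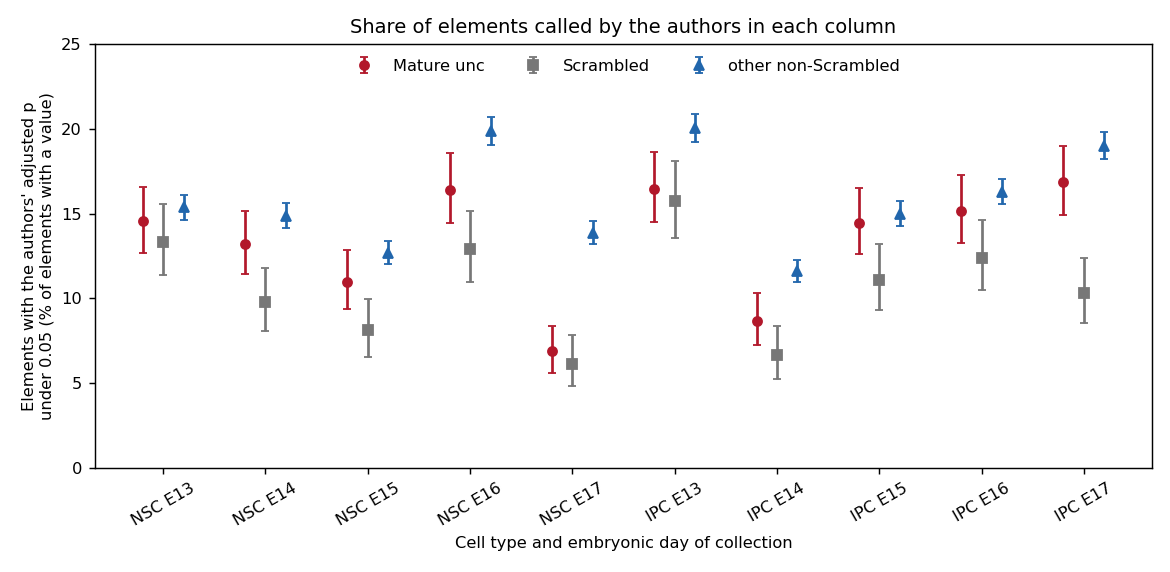
Share of elements with the authors' adjusted p under 0.05 in each of the 10 columns, in percent of the elements with a value, for the Mature elements labelled unc, Scrambled controls and all other elements; bars are 95% Wilson intervals over elements. The Mature unc points lie above Scrambled and below the other elements in all 10 columns, with the widest distance from Scrambled in IPC at E17 (16.9% against 10.3%).

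Calls seldom recurred in the same element. In NSC 589 of the 1313 elements (44.9%) were called at 1 or more ages, against 38.4% of Scrambled and 50.3% of all elements that are not Scrambled. Only 33 (2.51%) were called at 3 or more of 5 ages, against 1.31% of Scrambled (13 of 996) and a background of 4.66% of all elements that are not Scrambled. In IPC 671 elements (51.1%) were called at 1 or more ages, against 43.0% and 53.0%, and 32 (2.44%) at 3 or more, against 1.20% of Scrambled and a background of 5.00%. The repeated calls were thus more frequent than in Scrambled and less frequent than in the library. No element was called at all 5 ages of a cell type. Mature_neurons_404 was called in 7 of 10 columns, the largest number for any unchanged Mature element. With the stricter Scrambled limit described above, 0 of the 1212 elements with all 5 NSC values passed at 3 or more ages, where 0.344% of those that are not Scrambled did. In IPC 2 of 1193 (0.168%) passed, where 0.677% did, and 0 Scrambled elements passed in either cell type.

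The highest single values were found in elements whose other columns had medians of 0.510 to 1.35 fold. The top element of a column reached from 20.7 fold (Mature_neurons_1660, IPC at E14) to 430 fold over Scrambled (Mature_neurons_376, IPC at E17). Mature_neurons_376 had a median of 0.679 fold over its 7 other columns with a value. Mature_neurons_944, at 238 fold in NSC at E13, had a median of 0.510 fold over 8 other columns, and Mature_neurons_1912, at 187 fold in IPC at E15, one of 0.886 fold over 9. Some of the other columns were high: Mature_neurons_1566, the top element of NSC at E14 with 60.9 fold, had 20.6 fold in another column, and Mature_neurons_302, the top element of NSC at E15, was called in 3 other columns. The top Scrambled control was higher in IPC at E13 (462 fold against 72.0 fold) and in NSC at E15 (82.8 against 34.2 fold). In the other columns it was lower than the top unchanged element, for example 42.9 fold in IPC at E17. In IPC at E15 the top control stood at 28.9 fold and in NSC at E13 at 88.5 fold.

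Medians near 1 in the other columns were found beyond the top element too. Elements above the Scrambled limit in a given column had a median of 0.822 to 1.05 fold in their other columns, depending on the column, against 0.990 to 1.02 fold for the rest of the unchanged Mature elements. They were lower than the rest in 8 of 10 columns and higher in 2, NSC and IPC at E13. In Scrambled such elements were lower in 7 columns and higher in 3. In the other elements that are not Scrambled they were lower in 3 and higher in 7. Over the 1160 complete elements the Spearman correlation between a pair of columns had a median of 0.039 over the 45 pairs, and ran from -0.047 to 0.152. Scrambled elements gave a median of 0.032, and the other elements that are not Scrambled 0.087. The 5 pairs of NSC and IPC at the same age ran from 0.070 to 0.152 in the unchanged Mature elements, and from 0.032 to 0.076 in Scrambled. These are descriptions across elements, which share libraries, and the highest pair was NSC with IPC at E15.

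Averaging over all 10 columns gave the level that each element held across ages and cell types. For this and for the tests below, values were taken as log2 of the fold plus 0.1, with the value of a fold of 1 set to 0. The median over the 1160 complete elements was 0.091 on this log2 scale, against 0.084 in 955 Scrambled elements. The standard deviation between elements was 0.399 against 0.354. Of the complete elements 52 (4.48%, 95% Wilson interval 3.43% to 5.83%) had a mean above 0.81, which 2.5% of Scrambled elements exceed, and 28 (2.41%) lay below the value that 2.5% of Scrambled elements fall short of. Among the Mature desc elements 3.69% were above that limit and among the Mature asc elements 4.41%, whereas the share was 14.7% in the NSC class labelled unc, 14.6% in the IPC class labelled unc and 23.1% in the class named E14. The upper tail was therefore about that of the other Mature labels and below that of the progenitor classes.

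**Figure D3:**
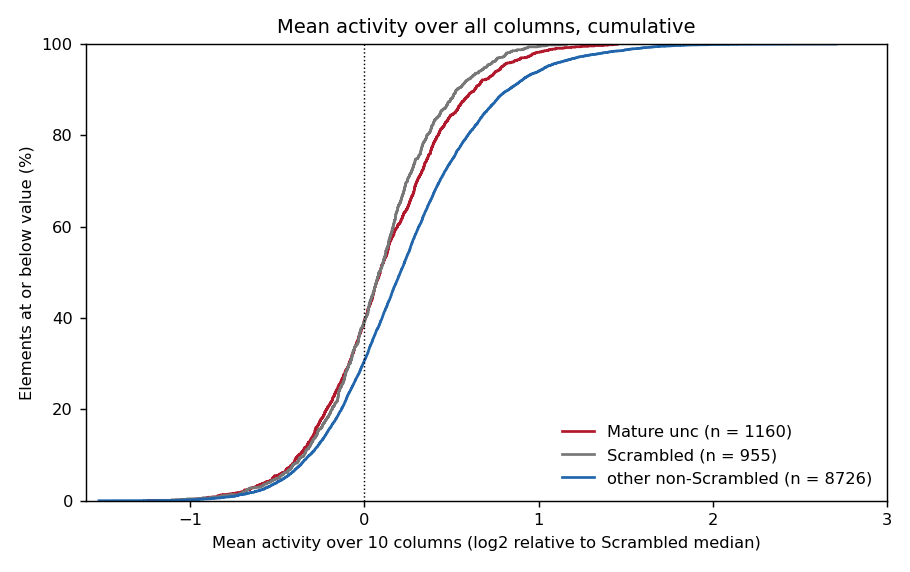
Cumulative share of elements (percent) by mean activity over 10 columns (log2 relative to the Scrambled median, pseudocount 0.1) for 1160 Mature unc elements, 955 Scrambled controls and 8726 other elements, all with values in 10 columns. The Mature unc and Scrambled curves cross near their medians of 0.091 and 0.084, and the Mature unc curve lies to the right of Scrambled above that point.

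Few elements stood on one side of the controls throughout. Only 6 of the 1160 elements (0.517%) exceeded the Scrambled median in all 10 columns, against 4 of 955 Scrambled (0.419%) and 2.66% of the other elements. In 9 or 10 columns the count was 43 (3.71%), against 2.30% of Scrambled and 8.62% of the other elements. At the opposite end 4 elements were below the Scrambled median in all 10 columns, against 0 Scrambled elements and 0.0917% of the other elements. At most 1 column was above it in 17 elements (1.47%), against 1.36% of Scrambled and 1.19% of the other elements.

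A linear model (limma) with the 10 columns as observations tested whether the mean of each element differed from the Scrambled median. Of the 1313 elements 1251 had values at 4 or more ages in each cell type and were tested, within a fit over the whole table and with Benjamini-Hochberg adjustment over all tested elements. At an adjusted p under 0.05, 5 elements (0.400%) were higher, where 2.31% of all tested elements that are not Scrambled were, and 3 (0.240%) were lower, where 0.0965% were. Among 982 Scrambled elements 0 were higher and 2 (0.204%) lower, so the share of lower calls was near that of the controls. At an unadjusted p under 0.05, 88 elements (7.03%) were higher against a background of 14.7%, and 34 (2.72%) lower against 2.19%. Scrambled elements gave 4.68% and 3.56%. The p-values measure the spread between the combined columns and not between embryos. The calls were few and near the threshold: none of the 5 higher and 3 lower calls was left when E13, E14 or E15 was left out or when limma's trended, robust variance was used.

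Mature_neurons_1222 had the highest mean of the complete elements. In NSC it stood at 11.1, 2.98, 1.24, 0.984 and 1.63 fold over Scrambled from E13 to E17, and in IPC at 5.54, 3.70, 2.62, 2.94 and 3.96 fold. It was at 2.62 fold or more in IPC at every age and in NSC at E13 and E14. It was above the Scrambled median in 9 of 10 columns, but above the Scrambled limit in only 1, IPC at E14. Its mean was 1.45 ± 0.25 (log2, SE), with an adjusted p of 0.0195 in limma. Without E13 the mean was 1.11.

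Mature_neurons_404 was the most even of the called elements. Its values were 1.59, 2.81, 3.28, 3.51 and 1.64 fold in NSC and 3.78, 2.74, 3.84, 1.42 and 4.91 fold in IPC, above the Scrambled median in 10 of 10 columns. It passed the Scrambled limit in 1 column, IPC at E17. Its standard deviation over the columns was 0.59 on the log2 scale, and the limma mean was 1.37 ± 0.25 (SE; adjusted p 0.0251). The mean moved only between 1.28 and 1.44 when 1 age was left out, although the adjusted p was then above 0.05 for every age but E16. NSC and IPC values overlapped and showed no order by age.

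Mature_neurons_738 had its highest values in NSC at E13 and E15, the 2 columns in which it passed the Scrambled limit. It stood at 26.7, 2.97, 10.1, 0.812 and 1.63 fold in NSC and at 1.85, 1.57, 1.79, 1.91 and 3.06 fold in IPC. The IPC values were closer together, whereas those of NSC spanned from below the Scrambled median to the highest value of the element. Its limma mean was 1.43 ± 0.31 (SE; adjusted p 0.0422), and without E13 the mean was 1.10.

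Mature_neurons_138 was higher in IPC than in NSC at each age, and passed the Scrambled limit in 1 column, IPC at E13. Its 5 NSC values, 0.838, 0.766, 1.57, 1.43 and 1.33 fold, lay near the controls, while the IPC values were 13.1, 2.71, 5.42, 3.80 and 1.56 fold. By the authors' adjusted p it was called at 4 of 5 ages in IPC and at 0 of 5 in NSC. The lowest IPC value was within the range of NSC. The mean over both cell types was 1.06 ± 0.24 (SE; limma adjusted p 0.0485). This lay below the highest mean of a complete Scrambled element, 1.16. The IPC minus NSC difference of Mature_neurons_138, 1.76 ± 0.57, had an adjusted p of 0.703 in limma.

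Mature_neurons_207 lacked a value in IPC at E13. It gave 2.54, 3.25, 1.24, 1.79 and 0.367 fold in NSC and 7.45, 21.6, 3.18 and 0.656 fold in IPC from E14 to E17. In both cell types the value at E17 was the lowest and the only one below the Scrambled median. The element passed the Scrambled limit in 2 columns, IPC at E14 and E15. The mean of its 9 measured values was 1.20. The limma fit leaves the missing value out and estimates the mean at the central age from the slope in each cell type, which gave 1.60 ± 0.35 (SE; adjusted p 0.0496).

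**Figure D4:**
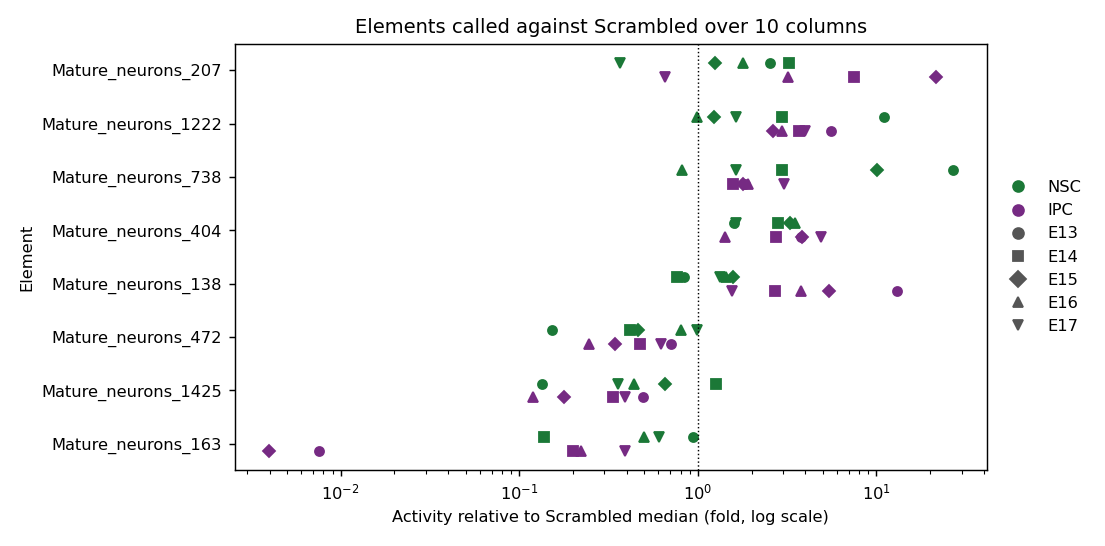
Fold over the Scrambled median (log axis) of the 8 unchanged Mature elements with a limma adjusted p under 0.05 for the mean over 10 columns, 1 point per cell type (colour) and age (symbol); the dotted line is the Scrambled median. Mature_neurons_404 lies to the right of the line in all 10 columns, and Mature_neurons_472 and Mature_neurons_163 lie to the left in every column with a value.

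The 3 lower elements were below the controls in nearly every column. Mature_neurons_472 had 0.153, 0.415, 0.461, 0.802 and 0.985 fold in NSC and 0.703, 0.473, 0.343, 0.245 and 0.625 fold in IPC, so all 10 values were below 1. Its limma mean was -0.95 ± 0.21 (SE; adjusted p 0.0485). The lowest mean of a complete Scrambled element was further down, at -1.17. Mature_neurons_1425 was below the Scrambled median in 9 of 10 columns, with values from 0.120 fold (IPC at E16) to 1.27 fold (NSC at E14), and a limma mean of -1.24 ± 0.28 (SE; adjusted p 0.0485). Mature_neurons_163 lacked a value in NSC at E15 and was below the Scrambled median in the other 9 columns, from 0.0040 fold (IPC at E15) to 0.943 fold (NSC at E13). The mean of its 9 measured values was -1.71, and its limma mean was -1.63 ± 0.31 (SE; adjusted p 0.0330). A low value can stand for little RNA or for a poorly measured element, which these values cannot tell apart.

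The other 5 of the 8 highest means did not pass the adjusted threshold in limma, and they differed in how many columns were high. Mature_neurons_206 stood at 134.5 fold in NSC at E13, 59.1 fold in IPC at E16 and 10.1 fold in NSC at E15, but between 0.359 and 1.85 fold in its other 7 columns. Its mean was 1.40 over all columns and 0.78 without the highest one, and its adjusted p in limma was 0.286. Mature_neurons_1347 was above the Scrambled median in 9 of 10 columns, with NSC values of 6.51, 1.74, 3.45, 5.56 and 3.20 fold and IPC values of 1.70, 1.12, 1.89, 12.1 and 0.464 fold. By the authors' adjusted p Mature_neurons_1347 was called at 4 of 5 ages in NSC and at 1 in IPC. Its limma mean of 1.32 ± 0.39 had an adjusted p of 0.117. Mature_neurons_693 was above the Scrambled median at all 5 ages in NSC, from 2.26 to 16.2 fold, and at 3 ages in IPC, with a mean of 1.28. Mature_neurons_1434, with 70.5 fold in IPC at E13, and Mature_neurons_430, with 13 fold in NSC at E15, had means of 1.24 and 1.21.

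The cell type comparison asked whether elements differed between IPC and NSC collected at the same age. In limma with age as a factor, 0 elements were higher in IPC and 0 higher in NSC at an adjusted p under 0.05, where 0.00% of the tested elements that are not Scrambled were called in either direction. At an unadjusted p under 0.05, 34 (2.72%) were higher in IPC against a background of 3.70%, and 25 (2.0%) higher in NSC against 3.36%. Scrambled elements gave 2.34% and 2.85% in the same order. The median difference over complete elements was 0.060 on the log2 scale, against 0.039 in Scrambled. By age it was 0.274, -0.033, 0.041, -0.097 and 0.136 from E13 to E17, where Scrambled had 0.292, -0.0046, -0.0072, -0.098 and 0.0015. The difference at E13 was thus present in the controls too. The IPC value exceeded the NSC value at each of the 5 ages in 41 of the 1160 elements (3.53%), and the reverse held in 31 (2.67%), against 3.04% each of Scrambled and 4.64% and 4.03% of the other elements.

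Mature_neurons_1442 had the largest difference toward IPC among elements of one sign at all ages. It stood at 0.037, 0.840, 0.447, 0.732 and 0.332 fold in NSC and at 3.61, 1.22, 10.2, 13.1 and 10.9 fold in IPC. The groups did not overlap: every NSC value was below the Scrambled median and every IPC value above it. By the authors' adjusted p the element was called at 4 of 5 ages in IPC. The difference was 3.63 ± 0.68 (log2, SE), with an unadjusted p of 0.00040 and an adjusted p of 0.703 in limma. Mature_neurons_462 had 0.858, 1.89, 2.82, 3.71 and 5.89 fold in IPC from E13 to E17 and between 0.191 and 0.969 fold in NSC, a difference of 1.94 ± 0.44. Mature_neurons_1103 had 0.964 to 11.9 fold in IPC and 0.276 to 1.76 fold in NSC, a difference of 2.04. The difference of 2.25 of Mature_neurons_848 included 72.0 fold in IPC at E13, with the other IPC values between 0.257 and 2.27 fold. Mature_neurons_639 had 6.94, 3.55 and 7.58 fold in IPC at E13, E15 and E16, and values below 1 at E14 and E17. None of these passed the adjusted threshold, whose lowest value among the unchanged Mature elements was 0.703.

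In the other direction, Mature_neurons_150 separated the cell types most evenly. It had 2.83, 1.52, 4.35, 3.78 and 2.27 fold in NSC and 0.466, 0.220, 0.327, 0.265 and 0.829 fold in IPC. Every NSC value was above the Scrambled median and every IPC value below it, with a difference of -2.57 ± 0.50 (log2, SE; unadjusted p 0.00053, limma adjusted p 0.703). Mature_neurons_1138 had the largest difference, -2.72 ± 0.65, with 24.5 fold in NSC at E13 and 1.43 to 4.26 fold at the other ages, against 0.121 to 2.20 fold in IPC. Mature_neurons_29 gave 1.17, 2.70, 6.79, 8.56 and 1.62 fold in NSC and 0.228 to 0.791 fold in IPC, again without overlap. Mature_neurons_872 (30.6 fold in NSC at E13) and Mature_neurons_1209 (23.1 fold in NSC at E16) had differences of -2.45 and -2.13 that drew on those single columns.

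**Figure D5:**
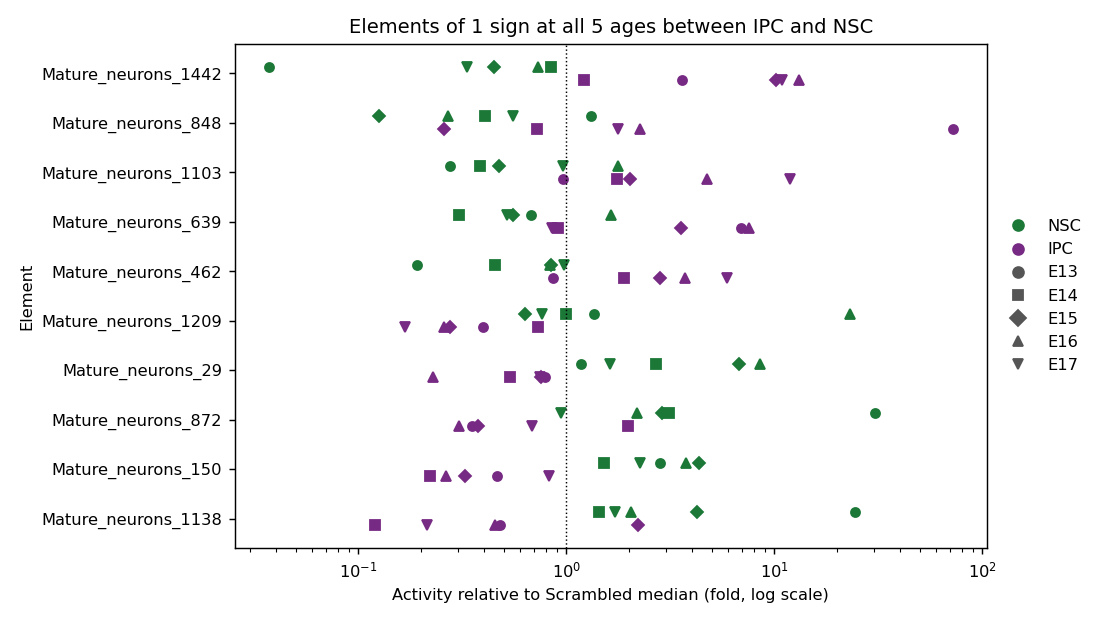
Fold over the Scrambled median (log axis) of the 10 named elements with one sign of the IPC minus NSC difference at all 5 ages, 1 point per cell type (colour) and age (symbol). In Mature_neurons_1442 all IPC points lie right of the dotted Scrambled median and all NSC points left of it, and in Mature_neurons_150 the order is the reverse.

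Slopes over age were centred near 0 in the unchanged Mature elements. The median slope was 0.021 log2 units per day in NSC and 0.0012 in IPC, against 0.029 and -0.013 in Scrambled. In limma 0 elements rose and 0 fell with age at an adjusted p under 0.05, where 0.00% of the tested elements that are not Scrambled were called. At an unadjusted p under 0.05, 43 elements (3.44%) had a rising slope against a background of 3.91%, and 50 (4.00%) a falling one against 3.65%. Scrambled elements gave 2.34% and 4.28%. The difference between the IPC and NSC slopes was called in 0 elements in each direction, with a background of 0.00%. Unadjusted, 42 (3.36%) had the higher slope in IPC against 2.81% of the background, and 35 (2.80%) the higher slope in NSC against 3.54%. The slopes had the same sign in both cell types in 594 of 1160 elements (51.2%), against 50.2% in Scrambled. Both E16 and E17 lay above both E13 and E14 in 15.8% of elements in NSC (Scrambled 17.5%, all elements that are not Scrambled 19.5%) and in 16.5% in IPC (17.3% and 19.0%). The reverse order held in 16.4% in NSC (Scrambled 15.7%, elements that are not Scrambled 14.4%) and in 18.4% in IPC (16.2% and 16.5%). In both cell types 39 elements (3.36%) were later above earlier (Scrambled 3.04%, all elements that are not Scrambled 4.04%). In both cell types 41 (3.53%) were later below earlier (2.93% and 2.90%).

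The steepest slopes mostly rested on a few high or low columns. Mature_neurons_2017, the steepest positive slope, had 0.099, 0.603, 0.959, 2.47 and 2.41 fold in NSC and 0.149, 1.35, 0.279, 1.91 and 8.04 fold in IPC. Its slope was 0.99 ± 0.21 log2 units per day (SE; unadjusted p 0.00070, limma adjusted p 0.642). Mature_neurons_1335 was at 0.117 to 0.596 fold from E13 to E15 in both cell types, and at 9.34 fold in NSC and 8.81 fold in IPC at E16. Mature_neurons_958 reached 25.2 fold in IPC at E17 and was at most 2.47 fold elsewhere, and Mature_neurons_273 reached 6.81 fold in NSC and 6.74 fold in IPC, both at E16. Among elements with negative slopes, Mature_neurons_542 stood at 7.91 fold in NSC and 41.8 fold in IPC at E13 and at 0.379 and 0.337 fold at E17, a slope of -1.10 ± 0.32. Mature_neurons_425 was at 7.52 and 67.5 fold at E13 and at 0.881 and 0.960 fold at E17. Mature_neurons_882 had 16.8 fold at E13 and 2.02 fold at E17 in NSC, but its highest IPC value, 61.7 fold, was at E15, and Mature_neurons_813 was lowest at E16 in both cell types, at 0.061 and 0.050 fold. None of these slopes passed the adjusted threshold in limma.

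The columns differed in the level and spread of the Scrambled controls. The Scrambled median of the authors' score ran from 0.164 in NSC at E13 to 2.37 in NSC at E17. The scaled median absolute deviation of the Scrambled controls was 0.432 times their median in NSC at E17 and 1.05 times it in NSC at E13. Relative to their median, the controls were thus spread most widely in NSC at E13 and least in NSC at E17. How far this spread reflects measurement error was not tested. Mature_neurons_1222, 738, 206, 693, 1138, 872, 944 and 163 were among the elements with their highest value in NSC at E13. For Mature_neurons_163 that value was 0.943 fold, below the Scrambled median. Other columns held the highest value of other named elements. It was in IPC at E13 for Mature_neurons_1434, 848, 542, 425 and 138, and in IPC at E17 for Mature_neurons_404, 1103, 462, 2017 and 958.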

How the data were processed

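The reporter table was used as deposited, with 3 columns for each of the 10 groups. A column combines the 2 or 3 biological samples of its group. The first, an activity score named statistic, is never negative; no source used here gives its scale or the tool behind it. The second is the authors' MAD score, the distance from the Scrambled median in scaled median absolute deviations, and the third the deposited p-value, an upper-tail normal p after Benjamini-Hochberg adjustment, as checked from the values. The mouse build mm10 and the trimming tool cutadapt, with no version, are named per the submitters' processing notes. The depth behind a value is unknown, since read and barcode counts were not analysed here.

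Scores were divided by the Scrambled median of the column. Fits used log2(fold + 0.1) minus log2(1.1) in limma 3.58.1 (R 4.3.3), two-sided, on elements with values at 4 or more of 5 ages in each cell type, with columns as observations: the mean with cell type and age within cell type as terms, the cell type difference with age as a factor, and the slopes. The code was tested on simulated data. Percentiles and counts were computed with pandas 2.3.3. Wilson intervals are at 95% and cover the counting of elements only. Named elements were the 8 highest means, the 5 largest cell type differences in each direction among elements of one sign at all ages, the 4 steepest slopes in each direction with the same sign in both cell types, and any element called where 10 or fewer were; the tops of single columns, such as Mature_neurons_376, were named after their values were seen. The rule for the elements uses class and name alone, but the rule, groups and tests were chosen with earlier results of these data known. Alternatives varied the pseudocount, centring, completeness filter, variance prior, ages, thresholds and, added after seeing the data, column weights.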

Additional observations from a re-analysis of the deposited data

Results flagged for a closer look

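Among 66 sets of 5 ages checked, 5 held a value whose gap to its nearest neighbour, divided by the whole range, exceeded 0.71. That is the critical value for 5 values, with folds taken on the log2 scale of the fits and shares as percent. Chance gives about 1 in 20 for unselected values. Most of the sets belong to named elements picked for extreme values, so that rate does not hold for them. The 5 values of a set are those of different ages and not of replicates. The share of unchanged Mature elements above the Scrambled limit, which 2.5% of the controls exceed, was 4.01% in NSC at E14, against 3.05% to 3.32% at the other NSC ages. Mature_neurons_738 stood at 3.06 fold over Scrambled in IPC at E17, against 1.57 to 1.91 fold at the other IPC ages. Mature_neurons_206 stood at 59.1 fold in IPC at E16, against 0.536 to 1.47 fold. Mature_neurons_1209 stood at 23.1 fold in NSC at E16, against 0.632 to 1.36 fold. Mature_neurons_958 stood at 25.2 fold in IPC at E17, against 0.468 to 1.47 fold. The NSC values of Mature_neurons_206 and the IPC values of Mature_neurons_1209 at the same ages were 0.359 and 0.258 fold.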

How the results depend on the processing

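The group's level kept its place at the controls: the median on the log2 scale, averaged over 5 columns, was 0.0021 in NSC and 0.013 in IPC, and stayed between -0.0058 and 0.032 under the alternatives run. Calls of single elements were less stable. The 5 elements above Scrambled in limma became 3 with a pseudocount of 0.02, 2 with centring on the Scrambled mean of log2 values, 2 with scaling by the median of all elements, 3 with column weights, and 0 with trended, robust variance. The 3 elements below became 1 with a pseudocount of 0.5 and 0 with trended, robust variance. Leaving out E13, E14, E15, E16 or E17 left 0, 0, 0, 2 and 1 elements above and 0, 0, 0, 1 and 0 below; fewer columns enter those fits. The cause of the other changes was not tested. The 0 calls for cell type, slope and slope difference stayed 0 in every setting run. The mean share called by the authors' adjusted p, 12.4% in NSC and 14.3% in IPC, was 3.35% and 4.39% with the value exceeded by 2.5% of Scrambled as the limit. The elements called at 3 or more ages, 33 in NSC and 32 in IPC, became 21 and 18 with an adjusted p under 0.01. They became 0 and 2 with the Scrambled limit, and 3 and 4 when 4 ages were asked for. At 4 or more ages the shares were 0.228% in NSC and 0.305% in IPC. Those of all elements that are not Scrambled were 0.859% and 1.44%, and those of Scrambled 0.100% and 0%. No background was computed for the adjusted p under 0.01. Of 94 values of the 8 called elements under alternatives, 59 lost the call, and 0 of 380 values of all named elements reversed. The named elements were picked as extremes of the same estimates, so the lack of reversals is no measure of stability. No paired analysis was possible because the deposited columns combine the biological samples of a group, so their replicate numbers could not serve as a block; the cell type comparison used age as its block. Each column holds 1 value per element, so 10 values of wide spread limit what the fits can detect.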
